A study of Mus musculus with 24 samples.

Results

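The basal keratins described here are Krt5, Krt14, Krt15 and Krt17, 4 genes of the 13485 tested. They were listed by name, as keratin genes that mark the basal layer of stratified and glandular epithelia, and the rule uses no measured value, although earlier results of these data were known when the list was made. The array carries 7 probe sets that name 1 of them alone, with 1 for Krt5, 3 for Krt14, 1 for Krt15 and 2 for Krt17, and 1 further probe set that names Krt17 and Krt14 together. All 4 genes had a probe set that passed the filter on low values, and the brightest probe set of each gene stands for it below.

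Keratins are the intermediate filament proteins of epithelial cells, and every filament pairs an acidic type I chain with a basic type II chain. Krt5 is the type II chain of basal cells and Krt14 is its main type I partner, while Krt15 and Krt17 are type I chains. In the mouse mammary gland, Krt5 and Krt14 are used as markers of the outer basal or myoepithelial layer, and Krt8, Krt18 and Krt19 as markers of the inner luminal layer. Krt15 is best known from basal keratinocytes and the hair follicle bulge, and Krt17 from skin appendages and wounded or hyperproliferative epidermis.

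RNA was measured on 24 expression arrays of sorted mouse cells. The tumours were 5 independent mammary adenocarcinomas, A to E, of C57BL6/J mice heterozygous for the Apc allele 1572T (Apc+/1572T), and the controls were 3 independently isolated pools of mammary glands, F to H, of C57BL6/J Apc+/+ mice. From each tumour and pool, 10000 cells were sorted as Lin-, Lin-CD29+CD24+ and Lin-CD29hiCD24+ cells, so that there are 5 tumour and 3 normal arrays of each population and 15 tumour and 9 normal arrays in all. The series compares the CD29hiCD24+ cells, its stem cell gate, between normal and tumour tissue and with the other sorted cells. No treatment is given, and animal ages and the number of glands in a pool were not in the labels used here. The 2 arrays whose titles carry no letter were taken as pool H by elimination. All 6 groups share the strain and the sort for lineage-negative cells, and a tumour group differs from its normal group in genotype and in tissue together. Values are log2 signals, on which a difference of 1 is a 2-fold difference in signal.

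The sorted populations were checked against marker lists that leave out the 4 members. The normal CD29hiCD24+ arrays had the highest mean over 10 basal or myoepithelial markers, between 11.88 and 12.17, against 4.18 to 4.52 in normal CD29+CD24+ arrays and 7.79 to 10.07 in normal Lin- arrays. The 17 luminal markers averaged 12.54 to 12.66 in normal CD29+CD24+ arrays. In the tumours the basal list lay between 7.56 and 9.87 in all 3 populations and the luminal list between 7.26 and 11.31. The 12 epidermal keratinocyte markers averaged 4.15 to 4.98 in the normal arrays and 6.60 to 11.39 in the tumour arrays. The tumours labelled as adenocarcinomas thus carried some keratinocyte transcripts in every sorted population. In tumour CD29hiCD24+ cells the list averaged 6.60 to 7.70, and 6 of the 12 markers were higher than in normal cells at adjusted p under 0.05 (limma). Krt1 and Dsc1 there had group means of only 2.79 and 2.91. Within a group, arrays correlated across probe sets at r between 0.950 and 0.991.

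Krt5 lies on chromosome 15 and the 3 type I members lie close together on chromosome 11. In the RefSeq gene table of build GRCm38.p6, Krt5 is at chr15:101707069-101712905, Krt15 at chr11:100131759-100135949, Krt14 at chr11:100203162-100207510 and Krt17 at chr11:100256215-100261029. The stretch of 129.3 kb from Krt15 to Krt17 holds 6 protein-coding genes, all of them keratins, in the order Krt15, Krt19, Krt9, Krt14, Krt16 and Krt17. Since Krt5 moved with Krt14 and Krt17 across the 24 arrays, as described below, its upstream sequence is shown here. RefSeq promoter windows were matched for 2 of the 4 members, and the 250 bases before the start of Krt5 (chr15:101712906-101713155, minus strand, GRCm38.p6) are printed with the E-box CAGGTG in capitals.
Krt5: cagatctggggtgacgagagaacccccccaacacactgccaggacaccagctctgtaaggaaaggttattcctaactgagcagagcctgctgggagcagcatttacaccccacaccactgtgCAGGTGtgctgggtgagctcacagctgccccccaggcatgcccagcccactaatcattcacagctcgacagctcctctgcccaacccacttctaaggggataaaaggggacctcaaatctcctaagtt
Searched on both strands, these 250 bases held CAGGTG at 1 position, with its first base at -128 counted from the start. A CAGGTG was found in 17.2% of the 32851 RefSeq windows of the same length. They did not hold the exact TATA string TATAAA (present in 12.4% of the windows), the GC box GGGCGG (32.7%), the AP-2 motif GCCNNNGGC (13.7%) or the AP-1 motif TGANTCA (6.75%). Looser TATA-like strings, such as the ataaaa near the end of the printed stretch, were not searched. The TCF/LEF motifs searched, CTTTGA (13.8%) with its variant CTTTGT (16.5%), were also not among these letters. Each match is a description of letters.

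In normal glands Krt5, Krt14 and Krt17 were bright in the CD29hiCD24+ cells, lower in Lin- cells and near the bottom of the scale in CD29+CD24+ cells. Krt15 was highest in the same CD29hiCD24+ cells and stayed well above the bottom of the scale in the other populations. The low band, at or under 2.83, is the 40th percentile of all values, and differences that start near it are compressed or rest on residual background. In bulk arrays of sorted cells, fewer cells of a type and less RNA per cell cannot be told apart.

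Krt5 read 12.56, 12.83 and 13.21 in the normal CD29hiCD24+ arrays of pools F, G and H, and 7.30, 10.65 and 10.26 in their Lin- arrays. In the CD29+CD24+ arrays it read 3.15, 3.06 and 2.50. The 3 populations did not overlap, and the Lin- array of pool F stood more than 2 units under the Lin- arrays of G and H. Krt14 read 14.35, 14.41 and 14.28 in CD29hiCD24+ cells, 9.40, 12.52 and 12.19 in Lin- cells and 4.20, 3.99 and 3.72 in CD29+CD24+ cells. Krt17 read 12.66, 13.55 and 13.46, then 7.60, 11.17 and 11.10, and then 2.05, 3.05 and 2.38 in the same order of populations. Both type I genes thus had the order of Krt5, with pool F again lowest in Lin- cells. Krt15 read 11.93, 12.52 and 12.72 in CD29hiCD24+ cells, 8.81, 9.81 and 10.48 in Lin- cells and 8.26, 7.71 and 7.48 in CD29+CD24+ cells. Its populations had the same order without overlap, over fewer units than the other members.

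**Figure D1:**
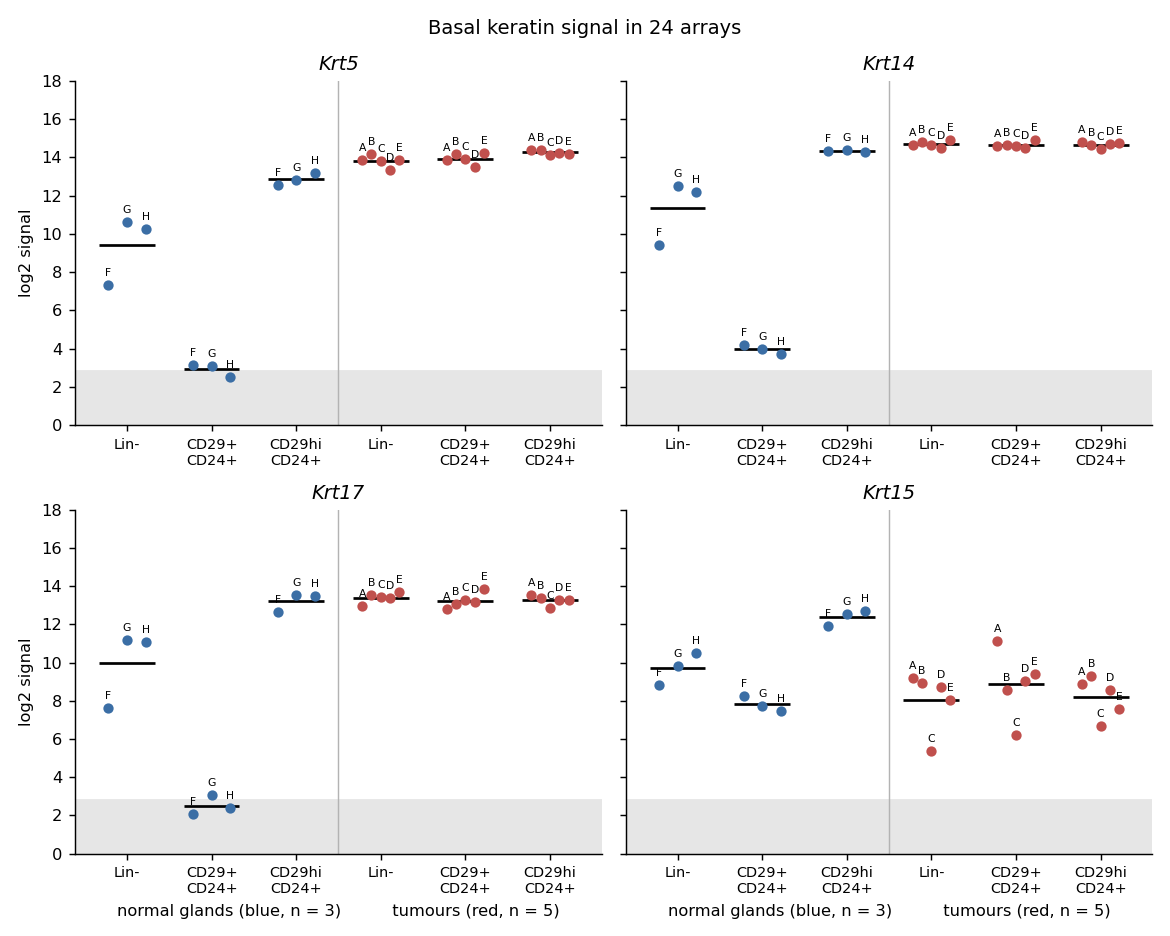
Log2 signal (y axis) of Krt5, Krt14, Krt17 and Krt15 in every array, by sorted population (x axis), with normal glands in blue (n = 3) and tumours in red (n = 5), letters for the pool or tumour, black bars for group means and a grey band for signals at or under 2.83. Krt5, Krt14 and Krt17 are near the top of the scale in all 15 tumour arrays, while Krt15 in tumour CD29hiCD24+ cells lies under its normal counterpart.

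All 4 members were called higher in normal CD29hiCD24+ than in normal CD29+CD24+ cells, in a comparison in which 21.3% of the genes tested were called higher and 25.3% lower. A call is a Benjamini-Hochberg adjusted p under 0.05 over all 13485 genes in the limma fit. The log2 differences ± SE were 9.96 ± 0.51 for Krt5 (adjusted p = 3.11e-12), 10.38 ± 0.46 for Krt14 (adjusted p = 3.16e-13), 10.73 ± 0.59 for Krt17 (adjusted p = 8.16e-12) and 4.57 ± 0.97 for Krt15 (adjusted p = 0.000569). The other probe sets gave 11.56 ± 0.47 and 6.09 ± 0.72 for Krt14 and 3.99 ± 0.48 for Krt17, all called higher. The groups did not overlap for 4 of 4 members, nor for 58.2% of all genes. Other values moved with this comparison. The endothelial list averaged 6.72 to 9.46 in CD29hiCD24+ against 3.79 to 4.01 in CD29+CD24+ arrays, with 8 of 11 genes called higher, and the fibroblast list 5.84 to 7.06 against 3.14 to 3.27, with 8 of 12 called higher. The log2 difference between 3' and 5' actin probe sets, a measure of RNA quality, was 2.20 to 2.89 against 1.41 to 1.83. With it as a covariate the members differed by 9.99 (Krt5), 10.24 (Krt14), 10.71 (Krt17) and 5.31 (Krt15), all called. The part of the other cell types was not tested.

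Against normal Lin- cells, the CD29hiCD24+ cells were again called higher for 4 of 4 members, where 17.0% of genes were called higher and 23.2% lower. The differences were 3.46 ± 0.51 for Krt5, 2.98 ± 0.46 for Krt14, 3.27 ± 0.59 for Krt17 and 2.69 ± 0.97 for Krt15 (limma adjusted p = 2.09e-05, 3.02e-05, 0.000167 and 0.0320). The groups did not overlap for 4 of 4 members, nor for 48.9% of genes. Without pool F, whose Lin- array is low, the differences were 2.56 for Krt5, 1.99 for Krt14 and 2.37 for Krt17, all called. The call of Krt15 was lost when any 1 pool was left out, with an adjusted p of 0.163 without F, 0.119 without G and 0.0918 without H.

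The CD29+CD24+ cells of normal glands were lower than the Lin- cells for 3 members, in a comparison in which 3.68% of genes were called lower and 0.512% higher. Krt5 differed by -6.50 ± 0.51, Krt14 by -7.40 ± 0.46 and Krt17 by -7.46 ± 0.59 (limma adjusted p = 2.12e-08, 5.54e-10 and 2.12e-08). The populations did not overlap for 4 of 4 members, against 18.4% of genes. Krt15 differed by -1.88 ± 0.97 with an interval from -3.91 to 0.14 and was not called (adjusted p = 0.4998), but it was called with the pool and tumour letter as a fixed replicate block (adjusted p = 0.0410). The other Krt17 probe set gave -1.13 ± 0.48 (adjusted p = 0.343). The other Krt14 probe sets gave -2.37 ± 0.72 (adjusted p = 0.0921) and -8.38 ± 0.47 (adjusted p = 3.55e-10).

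Tumour cells carried Krt5, Krt14 and Krt17 at a high level whichever population was sorted. By the probe sets that stand for the genes, the tumours differed from each other mainly in Krt15. Krt5 in tumours A to E read 13.86, 14.16, 13.79, 13.36 and 13.89 in Lin- cells. It read 13.87, 14.18, 13.93, 13.51 and 14.23 in CD29+CD24+ cells, and 14.39, 14.37, 14.14, 14.24 and 14.18 in CD29hiCD24+ cells. Tumour D was the lowest in the first 2 populations, and all 3 populations overlapped. Krt14 read 14.67, 14.82, 14.65, 14.49 and 14.90 in Lin- cells, 14.59, 14.64, 14.58, 14.49 and 14.89 in CD29+CD24+ cells, and 14.80, 14.67, 14.42, 14.70 and 14.74 in CD29hiCD24+ cells. Krt17 read 12.97, 13.53, 13.42, 13.39 and 13.67, then 12.79, 13.07, 13.28, 13.15 and 13.86, and then 13.56, 13.39, 12.84, 13.27 and 13.28 in the same order. For both genes, by the probe sets that stand for them, tumour E was the highest in Lin- and CD29+CD24+ cells, and the populations overlapped. The dimmest Krt14 probe set ranked the tumours otherwise, with E the lowest in Lin- cells and B the highest in CD29+CD24+ cells. The remaining probe sets of both genes also had E highest in these populations.

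Krt15 read 9.17, 8.92, 5.37, 8.72 and 8.04 in the Lin- cells of tumours A to E. It read 11.13, 8.55, 6.20, 9.02 and 9.40 in CD29+CD24+ cells and 8.85, 9.27, 6.67, 8.56 and 7.58 in CD29hiCD24+ cells. Tumour C was the lowest in all 3 populations and tumour A the highest in the first 2. Over the 15 tumour arrays Krt15 spanned 5.75 units, against 1.03 for Krt5, 0.48 for Krt14 and 1.07 for Krt17. The mean over the 3 arrays of a tumour ran from 6.08 in C to 9.72 in A.

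None of the 4 members was called between populations within tumours, and 0 of 4 had an unadjusted p under 0.05 in any of these limma comparisons. CD29hiCD24+ minus CD29+CD24+ was 0.32 ± 0.40 for Krt5 (interval -0.51 to 1.14), 0.03 ± 0.35 for Krt14 (-0.71 to 0.76), 0.04 ± 0.46 for Krt17 (-0.91 to 0.99) and -0.67 ± 0.75 for Krt15 (-2.24 to 0.90), where 2.25% of genes were called higher and 1.94% lower. CD29hiCD24+ minus Lin- was 0.45 ± 0.40 for Krt5 (-0.37 to 1.27), -0.04 ± 0.35 for Krt14 (-0.77 to 0.70), -0.13 ± 0.46 for Krt17 (-1.08 to 0.82) and 0.14 ± 0.75 for Krt15 (-1.43 to 1.71), where 3.74% were called higher and 4.63% lower. For CD29+CD24+ minus Lin-, where 0.00742% of genes were called higher and 0.208% lower, the members lay between -0.16 ± 0.46 (Krt17) and 0.81 ± 0.75 (Krt15). The populations overlapped for every member, while 5.05%, 6.64% and 0.653% of genes did not overlap in these comparisons. The fit pools the spread of 6 groups, among them the normal Lin- group with an SD of 1.83 for Krt5. With the letter as a random replicate block, the genes called between CD29hiCD24+ and CD29+CD24+ tumour cells went from 565 to 1817, and none of the 4 members was among them. Within a tumour, Krt5 was higher in CD29hiCD24+ than in Lin- cells in 5 of 5 tumours, by 0.21 to 0.88, and higher than in CD29+CD24+ cells in 4 of 5.

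**Figure D2:**
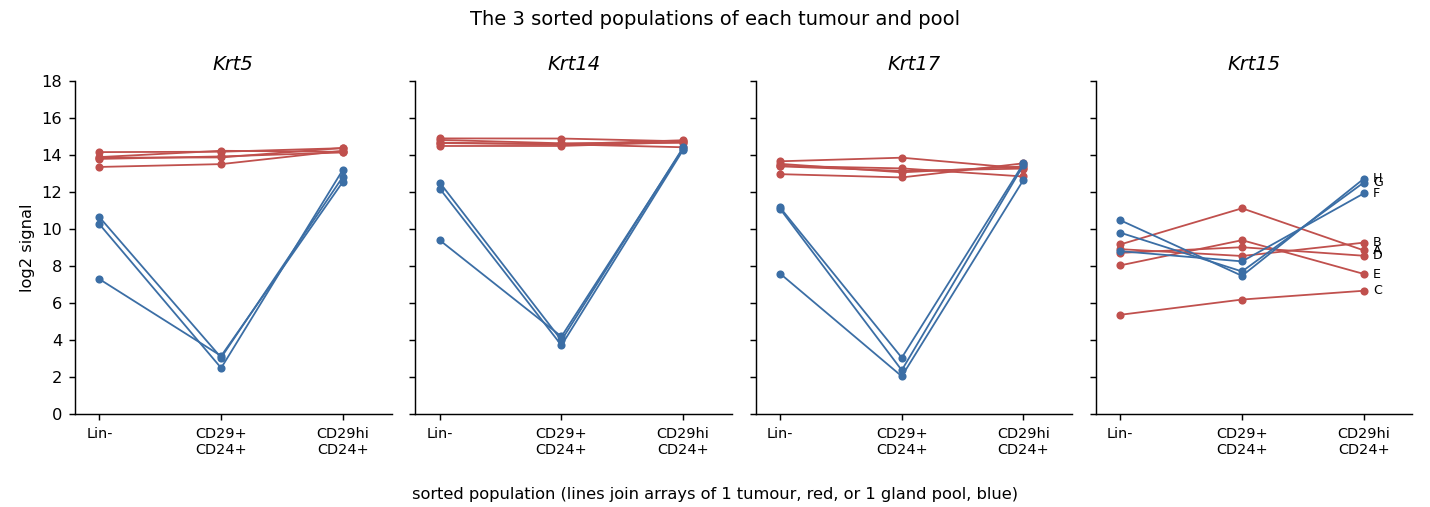
Log2 signal (y axis) of the 3 sorted populations (x axis), with a line for each tumour (red) and gland pool (blue), lettered in the Krt15 panel. The pools fall to the bottom of the scale in CD29+CD24+ cells for Krt5, Krt14 and Krt17, the tumours run flat, and only in the Krt15 panel are the tumour lines spread over several units.

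The contrast between the CD29hiCD24+ and CD29+CD24+ gates was thus tested for a difference between tumours and normal glands. The tumour minus normal difference of this contrast was -9.64 ± 0.65 for Krt5, -10.35 ± 0.58 for Krt14, -10.69 ± 0.74 for Krt17 and -5.25 ± 1.23 for Krt15 (limma adjusted p = 4.73e-10, 3.27e-11, 7.52e-10 and 0.00179). The other probe sets gave -11.48 ± 0.60 and -6.08 ± 0.92 for Krt14 and -3.66 ± 0.61 for Krt17, all called. This interaction was called lower for 19.8% and higher for 22.2% of genes. The myoepithelial contractile genes, the smooth muscle proteins of the basal layer, were called lower in this interaction for 13 of 13 measured genes. In the gate contrast within normal glands all 13 were called higher, with Myl9 at 11.11 and Cnn1 at 10.05, and within tumours 3 of 13 were, with Acta2 at 3.80 ± 0.72, Myl9 at 3.64 ± 0.83 and Cnn1 at 2.73 ± 0.67.

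In CD29hiCD24+ cells, the population in which the normal members are brightest, tumours had more Krt5 and much less Krt15 than normal glands, and Krt14 and Krt17 were not called. Krt5 was higher by 1.40 ± 0.46 (interval 0.45 to 2.35, limma adjusted p = 0.0193), a 2.64-fold difference, and the lowest tumour at 14.14 was above the highest pool at 13.21. Krt15 was lower by 4.20 on the log2 scale (-4.20 ± 0.87, interval -6.01 to -2.39, limma adjusted p = 0.000632), an 18.4-fold difference, and the highest tumour at 9.27 was under the lowest pool at 11.93. Of all genes, 15.6% were called higher and 22.9% lower in this comparison. Krt14 differed by 0.32 ± 0.41 (interval -0.53 to 1.17, adjusted p = 0.579), though each tumour array, from 14.42, was above each pool, up to 14.41. Krt17 differed by 0.05 ± 0.53 (interval -1.05 to 1.14, adjusted p = 0.958), and its groups overlapped. The groups did not overlap for 3 of 4 members and for 37.0% of genes. The other probe sets of Krt14 gave 0.63 ± 0.42 and 0.42 ± 0.65, and that of Krt17 gave 0.16 ± 0.43. Only 0.153% to 0.437% of probe sets were brighter than Krt14 in any CD29hiCD24+ array, and whether a ceiling of the array compresses its differences was not tested.

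Values of other cell types moved with these arrays. The 11 endothelial markers averaged 6.72 to 9.46 in normal and 3.32 to 4.05 in tumour CD29hiCD24+ arrays, and 10 of them were called lower in tumours. The 11 leukocyte markers averaged 8.28 in pool F but 3.03 and 3.10 in G and H, against 3.92 to 5.53 in tumours. The luminal list averaged 7.88 in pool F, 10.49 in G and 10.61 in H, against 7.26 to 8.62 in tumours. The part of these cells in the keratin differences was not tested. The actin 3' to 5' difference averaged 2.53 ± 0.35 (SD, n = 3) in normal and 2.03 ± 0.30 (SD, n = 5) in tumour CD29hiCD24+ arrays. With it as a covariate Krt5 differed by 1.38 (limma adjusted p = 0.0391). Without pool F, Krt5 differed by 1.24 and remained called (adjusted p = 0.000250). Over all alternatives Krt15 differed by -4.60 to -3.82, with adjusted p from 2.29e-05 to 0.00733.

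**Figure D3:**
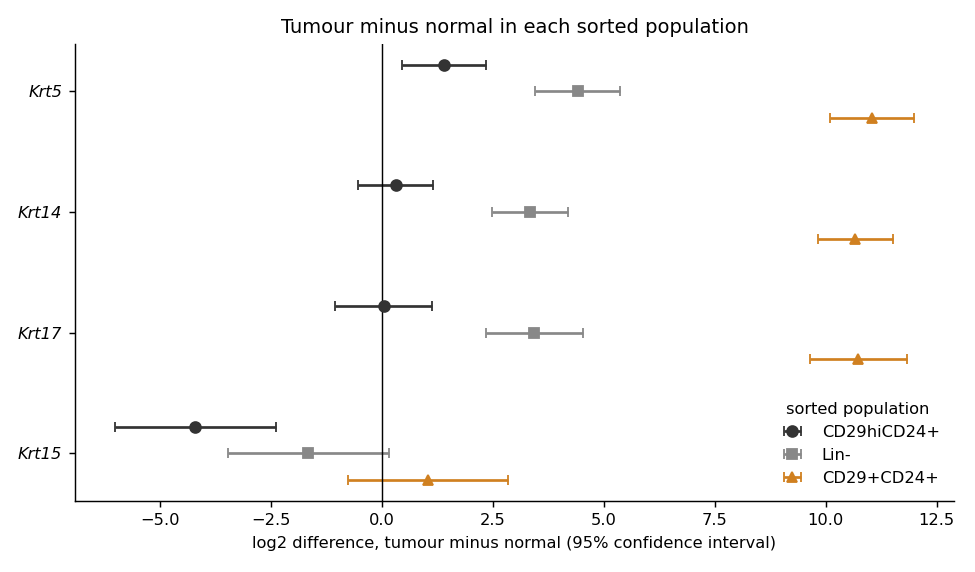
Log2 difference between tumours (n = 5) and normal pools (n = 3), with 95% confidence intervals from limma, for each member in the 3 sorted populations. Krt5, Krt14 and Krt17 lie above 10 in CD29+CD24+ cells and between 3.34 and 4.41 in Lin- cells, and Krt15 is at -4.20 in CD29hiCD24+ cells.

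In CD29+CD24+ cells, tumours were higher in 3 of 4 members, in a comparison in which 16.4% of genes were called higher and 27.1% lower. Krt5 differed by 11.04 ± 0.46, Krt14 by 10.67 ± 0.41 and Krt17 by 10.73 ± 0.53 (limma adjusted p = 7.83e-14, 2.58e-14 and 9.06e-13). The other probe sets gave 12.11 ± 0.42 and 6.51 ± 0.65 for Krt14 and 3.82 ± 0.43 for Krt17, all called higher. The normal arrays start near the low band, so no fold is given. Krt15 differed by 1.04 ± 0.87 (interval -0.77 to 2.85, adjusted p = 0.378) and its groups overlapped, whereas without tumour C it differed by 1.71 and was called (adjusted p = 0.0146). The groups did not overlap for 3 of 4 members and 44.8% of genes. The epidermal keratinocyte list was higher in these tumour arrays too, at 7.40 to 9.88 against 4.15 to 4.37, with 10 of 12 called, and its part in the result was not tested.

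In Lin- cells the same 3 members were called higher in tumours, where 13.9% of genes were called higher and 26.6% lower. Krt5 was 21.3-fold higher (4.41 ± 0.46), Krt14 10.1-fold (3.34 ± 0.41) and Krt17 10.8-fold (3.44 ± 0.53), with limma adjusted p = 1.47e-07, 1.33e-06 and 2.22e-05. Krt15 differed by -1.65 ± 0.87 (interval -3.46 to 0.16, adjusted p = 0.142), with overlapping groups. The groups did not overlap for 3 of 4 members and 38.7% of genes. The low Lin- array of pool F adds to these differences, which were 3.36 for Krt5, 2.35 for Krt14 and 2.26 for Krt17 without it and remained called. In this comparison 11 of 12 epidermal keratinocyte markers were called higher, with list means of 9.37 to 11.39 in tumours against 4.56 to 4.65, and 12 of 17 luminal markers were called lower, at 7.85 to 9.97 against 12.16 to 12.63. Their part in the result was not tested.

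Because the members are read on the same arrays, their shifts from normal to tumour can be compared within an array. For each of the 6 pairs of members the difference in log2 signal was set between tumours and pools in each population, 18 comparisons in all, with a two-sided exact permutation test whose smallest possible p for 5 against 3 arrays is 0.0179. In CD29hiCD24+ cells the shift of Krt15 fell below that of Krt5 by 5.60, of Krt14 by 4.52 and of Krt17 by 4.25 (exact p = 0.0179 each, adjusted p = 0.0247). The shift of Krt5 exceeded that of its partner chain Krt14 by 1.08 and that of Krt17 by 1.35 (exact p = 0.0179, adjusted p = 0.0247). Krt14 shifted by 0.32 in the probe set used here and by 0.63 and 0.42 in its others, so the gap to Krt5 depends on the probe set. Krt14 and Krt17 differed by 0.27 (exact p = 0.268).

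Among Lin- cells Krt5 also shifted more than Krt14, by 1.07, and more than Krt17, by 0.97 (exact p = 0.0179, adjusted p = 0.0247). The size of the first gap depends on the probe set. Krt14 shifted by 3.34 in the probe set used and by 3.79 and 3.91 in the others, against 4.41 for Krt5. Over all settings this gap went down to 0.73. There the shift of Krt15 was smaller than those of Krt5, Krt14 and Krt17 by 6.06, 4.99 and 5.09 (same exact p). In CD29+CD24+ cells Krt15 stood 9.998, 9.62 and 9.69 units below them (exact p = 0.0179), and Krt5 against Krt14 differed by 0.38 (exact p = 0.0536, adjusted p = 0.0689). Krt5 against Krt17 differed there by 0.31 (exact p = 0.375, adjusted p = 0.422). Krt14 and Krt17 differed by -0.07 in CD29+CD24+ and -0.10 in Lin- cells (exact p = 0.875 and 0.625). With the mean of each gene's probe sets, their difference in CD29+CD24+ cells was 2.48 and called (exact permutation test, adjusted p = 0.0201). Of each member only the shifts were compared, since signals of different probe sets are not on a common scale. Shifts depend on the probe set too. In CD29+CD24+ cells the probe sets of Krt17 shifted by 10.73 and 3.82, and those of Krt14 by 10.67, 12.11 and 6.51. A gap between members thus holds for the probe sets compared. With any 1 pool left out, the smallest adjusted p was 0.0612. Krt5 against Krt17 in Lin- cells was also not called without tumour B, C or E (adjusted p = 0.0791).

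The order of the group means ran, for Krt5, from tumour CD29hiCD24+ (14.26 ± 0.11 SD) over tumour CD29+CD24+ (13.95 ± 0.29), tumour Lin- (13.81 ± 0.29) and normal CD29hiCD24+ (12.86 ± 0.33) to normal Lin- (9.40 ± 1.83) and normal CD29+CD24+ (2.90 ± 0.35), n = 5 or 3. The 3 tumour groups overlapped with each other, and each step below them was without overlap. For Krt14 the tumour groups lay between 14.64 and 14.71, above normal CD29hiCD24+ at 14.35 ± 0.07, normal Lin- at 11.37 ± 1.71 and normal CD29+CD24+ at 3.97 ± 0.24. For Krt17 normal CD29hiCD24+ at 13.22 ± 0.49 lay with the tumour groups at 13.23 to 13.39. Krt15 alone had its highest mean in a normal group, CD29hiCD24+ at 12.39 ± 0.41, followed by normal Lin- at 9.70 ± 0.84. Its 3 tumour groups, at 8.86 ± 1.78, 8.19 ± 1.05 and 8.05 ± 1.55, and normal CD29+CD24+ at 7.82 ± 0.40 overlapped each other.

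The likeness of other genes to each member was measured by Pearson's r over the 24 arrays, which share 6 groups, so that r mainly follows the group means. Krt5, Krt14 and Krt17 were alike, with r of 0.991 between Krt5 and Krt14, 0.996 between Krt14 and Krt17 and 0.987 between Krt5 and Krt17. Krt15 had r of 0.124, 0.193 and 0.204 with Krt5, Krt14 and Krt17. The 5 genes most like Krt5 were Col17a1 (0.998), the hemidesmosomal collagen, Moxd1 (0.994), Krt14, Trp63 (0.990), which encodes the p63 transcription factor of basal cells, and Emb (0.989). The 5 most like Krt14 were Krt17, Krt5, Col17a1 (0.991), Fst (0.991) and Gja1 (0.986), and the same genes with Krt14 in place of Krt17 were the 5 most like Krt17. The 5 most like Krt15 were Slc25a4 (0.919), Kank4 (0.863), Zfp462 (0.863), Plce1 (0.860) and Egfl6 (0.860).

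Over the 15 tumour arrays alone, which hold 3 arrays of each tumour, Krt14 and Krt17 had r of 0.744, Krt5 and Krt14 0.499 and Krt5 and Krt17 0.196. Krt15 had r of 0.06 with Krt5, 0.17 with Krt14 and -0.09 with Krt17. The genes most like a member there were Tspo (0.938), Cdhr1, Rnf141, Actb and Nradd for Krt5, and Micos13 (0.964), Cox5b, Mrpl4, Nop10 and Mrpl37 for Krt14. For Krt15 they were Glrb (0.910), Trub1, Nono, Ints4 and Crot, and for Krt17 Mea1 (0.888), Mrps7, Bud23, Eif3d and Psmc3.

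Genes that work with the basal keratins were taken from lists chosen by their known roles, and are given for CD29hiCD24+ cells, tumour against normal. Of the 18 genes that anchor keratin filaments to junctions, 9 were called higher and 2 lower, with a median of 0.43 against -0.01 over all genes tested. They included the desmosomal cadherin Dsc3 at 6.26 ± 0.44, envoplakin (Evpl) at 4.49 ± 0.39 and the hemidesmosomal integrin chain Itgb4 at 3.36 ± 0.33, while the plakophilin Pkp2 was lower at -2.90 ± 0.97. Col17a1, the gene nearest to Krt5 over the 24 arrays, was higher by 1.42 ± 0.44 (limma adjusted p = 0.0139), next to 1.40 for Krt5. Of 18 keratinocyte and basal transcription factors, 10 were called higher and 2 lower, with Grhl3 at 5.74 ± 0.48, Ovol1 at 5.64 ± 0.48, Foxq1 at 5.20 ± 0.27 and Cebpa at 2.87 ± 0.43, and a median of 1.02. Trp63 was higher by 1.21 ± 0.33 (limma adjusted p = 0.00579).

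Other keratins changed more than Krt5 in the same cells. Of 9 suprabasal, squamous and wound keratins, 4 were called higher and none lower, namely Krt79 at 10.49 ± 0.45, Krt6b at 8.94 ± 0.50, Krt6a at 5.08 ± 0.41 and Krt16 at 4.38 ± 0.33. Of 5 simple epithelial keratins, all 5 were called lower, among them Krt19 at -3.71 ± 1.35, Krt8 at -3.52 ± 0.92, Krt18 at -3.49 ± 0.85 and Krt7 at -3.20 ± 1.16. Along the chromosome 11 cluster the measured differences therefore ran from -4.20 for Krt15 and -3.71 for Krt19 over 0.32 for Krt14 and 4.38 for Krt16 to 0.05 for Krt17. Neighbouring genes of this cluster are similar in sequence, and how far their probe sets share signal was not tested.

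**Figure D4:**
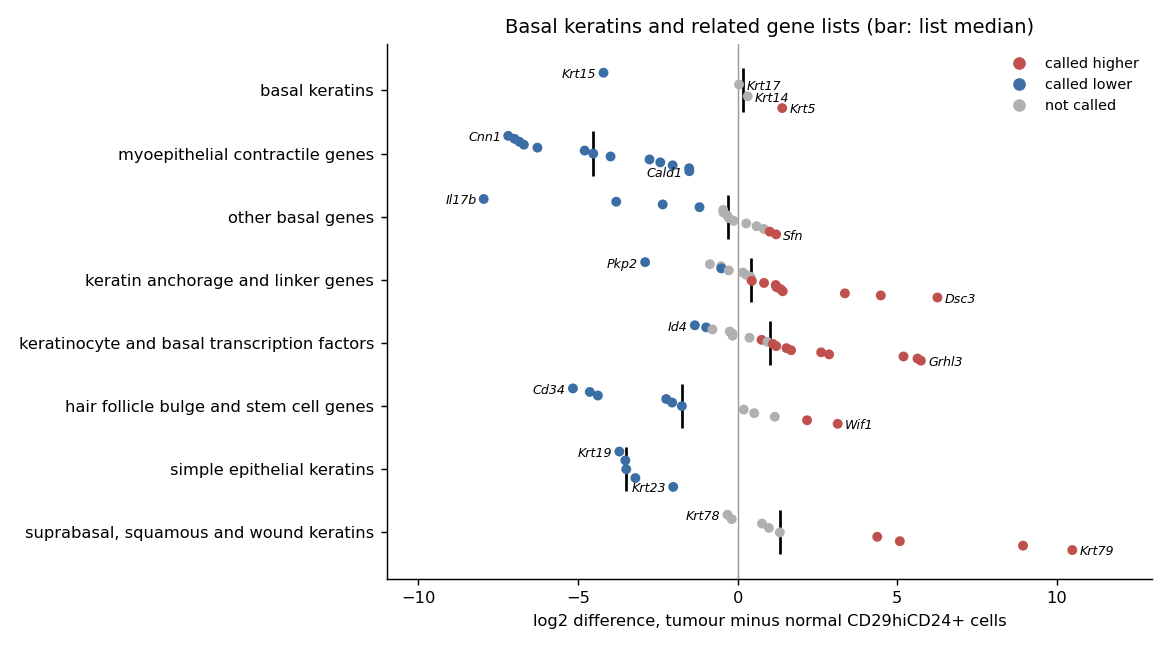
Log2 difference (x axis) between tumour and normal CD29hiCD24+ cells for the basal keratins and 7 related gene lists (y axis), 1 point a gene, red or blue where called higher or lower and grey where not called, with a bar for the list's median. All 13 contractile genes lie below 0, with a median of -4.52, while Krt14, Krt17 and Krt5 lie between 0.05 and 1.40.

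The contractile genes, which share the basal layer with these keratins, went the other way from Krt5. All 13 were called lower in tumour CD29hiCD24+ cells, with Cnn1 at -7.19 ± 0.77, Myh11 at -6.99 ± 0.85, Actg2 at -6.84 ± 0.68 and the oxytocin receptor Oxtr at -6.70 ± 0.72. Among 6 pericyte markers, 3 were called lower and 1 higher in the same comparison, with a median of -2.43. Endothelial markers were called lower for 10 of 11. The part of these cell types in the contractile differences was not tested. Of 14 other basal genes 2 were called higher and 4 lower, shares near the 15.6% and 22.9% of all genes, with a median of -0.30. The called genes with the largest differences were Il17b at -7.96 ± 0.59, Vim at -3.80 ± 0.61, Sparc at -2.35 ± 0.43 and Sfn at 1.21 ± 0.37. Of 11 hair follicle bulge and stem cell genes, the compartment for which Krt15 is best known, 6 were called lower and 2 higher, with a median of -1.75. Cd34 was at -5.16 ± 0.89, Postn at -4.63 ± 0.85 and Cd200 at -4.38 ± 0.74, beside -4.20 for Krt15, while the Wnt inhibitor Wif1 was at 3.14 ± 0.43. The tumour mean of Cd34 in these cells was 2.24, within the low band. In normal glands Postn had its highest group mean in CD29hiCD24+ cells (14.94), as Krt15 did. Cd34 had its highest in Lin- cells (8.40) and Cd200 in CD29+CD24+ cells (12.94), so these genes did not share the normal order of Krt15.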

How the data were processed

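The deposited values are log2 signals per probe set, which the authors had background-corrected, normalised and summarised before deposit. The submitters' processing notes name RMA, GCRMA and Partek. The sources used here give neither a version nor a role for them. The scale was taken from the range of the values, 0.489 to 16.06, with array medians of 3.26 to 3.41. Per the labels' protocols, 10000 cells per array gave the RNA, which went through a column-based micro kit and 2 cycles of labelling. Of 45101 probe sets, 34945 had 1 gene name, 932 several, 9160 none, and 64 were controls. The filter kept the 24278 probe sets that exceeded 2.83, which is the 40th percentile, in 3 or more arrays, and the one with the highest mean stood for its gene, which left 13485 of 18193 genes.

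Group means (6) were fitted over the 24 arrays with limma 3.58.1 under R 4.3.3 (lmFit, contrasts.fit, eBayes with trend), with 10 contrasts. The smaller tests between members are exact permutation tests. Both were tested on simulated data. Values after ± are standard errors, or SD where written. The number of arrays limits the precision. The limma p-values rest on the spread of arrays within a group, pooled over the 6 groups, with the arrays of 1 tumour or pool treated as independent. For Krt14 this pools an SD of 1.71 in normal Lin- with 0.15 in tumour and 0.07 in normal CD29hiCD24+ arrays. The 3 populations of a letter come from the same tumour or pool. After the group means were taken out, the median correlation was 0.578 for the 15 pairs from 1 tumour and -0.167 for the 60 pairs from separate tumours. For pools it was 0.142 (9 pairs) and -0.071 (18 pairs).

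The members and the gene lists were chosen with earlier results of these data known. The text names every member, the 5 genes with the highest r with each, up to 4 called genes of a list with the largest differences, and genes that a result turns on. Alternatives were other normalisations, filters, probe sets, variance models, the letter as a replicate block and an actin 3' to 5' covariate. Further alternatives were a block for the number ranges of the sample descriptions, and leaving out each tumour or pool. Tumours A to D carried description numbers from 19 to 64. Tumour E carried 90 to 92, within the 82 to 95 of pools F to H. Only tumour E thus shared the range of the pools. With this block, a difference between tumours and pools rests on tumour E. For tumours A to D, tissue and number range cannot be told apart. The other probe sets of Krt14 and Krt17 were added after the data were seen. Gene positions and promoter windows are from RefSeq, GRCm38.p6.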

Additional observations from a re-analysis of the deposited data

Results flagged for a closer look

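The contrast between CD29hiCD24+ and CD29+CD24+ cells differed between tumours and normal glands for all 4 basal keratins, by the test of the difference itself (limma). The tumour minus normal difference of that contrast was -9.64 for Krt5, -10.35 for Krt14, -10.69 for Krt17 and -5.25 for Krt15 (adjusted p = 4.73e-10, 3.27e-11, 7.52e-10 and 0.00179). The other probe sets gave -11.48 and -6.08 for Krt14 and -3.66 for Krt17. In the pools the contrast was above 0 in 3 of 3 for each gene. In the tumours it was above 0 in 4 of 5 for Krt5, 3 of 5 for Krt14 and Krt17 and 2 of 5 for Krt15. No array stood apart from its group by Dixon's criterion for the members in the groups of 5, and groups of 3 were not tested. The nearest was Krt15 in the Lin- cells of tumour C, with a ratio of 0.7025 against a critical value of 0.71.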

How the results depend on the processing

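Of 898 alternative values of the 40 member differences, 875 kept their direction and their side of the threshold. Another 5 lost a call, 2 gained one and 16 changed sign, all of them in differences not called. Krt5 between tumour and normal CD29hiCD24+ cells ranged from 1.24 to 1.57, with adjusted p from 0.000250 to 0.0451. With the letter as a fixed replicate block, Krt15 in normal CD29+CD24+ against Lin- cells (-1.88) became called (adjusted p = 0.0410), and the block changed no other call of a member.

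Leaving out 1 tumour or pool moved 7 differences across a threshold or 0. They ranged from -0.24 to 0.21 for Krt17 and from 0.48 to 1.71 for Krt15 (tumour against normal, CD29hiCD24+ and CD29+CD24+). Krt15 in normal CD29hiCD24+ against Lin- cells ranged from 2.48 to 2.91. Within tumours, CD29hiCD24+ against CD29+CD24+ ranged from -0.019 to 0.075 for Krt14 and from -0.14 to 0.19 for Krt17. CD29hiCD24+ against Lin- ranged from -0.10 to 0.0074 for Krt14 and from -0.15 to 0.29 for Krt15.

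The Krt14 difference between CD29hiCD24+ and Lin- tumour cells was 0.0089 after quantile normalisation, 0.0105 for its most variable probe set (the second), 0.24 for the third and 0.069 for their mean. Between CD29+CD24+ and Lin- tumour cells it was 0.23 for the third and 0.032 for the mean. The second Krt17 probe set gave 0.10 between CD29hiCD24+ and Lin- tumour cells. In normal CD29+CD24+ against Lin- cells, the second Krt17 probe set gave -1.13 and the third Krt14 probe set -2.37, no longer called. The cause was not tested.

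Unequal shifts of 2 members had 129 of 180 values unchanged in call, and leaving out any pool ended the calls. The smallest p that 5 against 2 arrays allow did not pass the threshold in these settings after adjustment over the comparisons. Over all settings that left out 1 tumour or pool, the shifts in CD29hiCD24+ cells ranged from 0.92 to 1.29 (Krt5 over Krt14), 5.25 to 5.84 (Krt5 over Krt15), 1.17 to 1.48 (Krt5 over Krt17), 4.20 to 4.79 (Krt14 over Krt15) and -4.49 to -3.97 (Krt15 over Krt17). In CD29+CD24+ cells they ranged from 0.30 to 0.45, 9.34 to 10.58, 8.97 to 10.20 (Krt14 over Krt15), -0.34 to 0.27 (Krt14 over Krt17) and -10.37 to -9.012. In Lin- cells they ranged from 1.004 to 1.13, 5.399 to 6.63, 0.83 to 1.10, 4.34 to 5.51, -0.26 to 0.093 (Krt14 over Krt17) and -5.64 to -4.36, and the third also lost its call without tumour B, C or E (adjusted p = 0.0791). Krt5 over Krt14 in CD29+CD24+ cells was called after quantile normalisation (0.46). With the mean of a gene's probe sets, it was 1.28, and Krt5 over Krt17 was 3.76 in the same cells, against 0.31 with the probe sets that stand for the genes. Krt14 over Krt17 was 2.48 in CD29+CD24+ and 0.50 in Lin- cells with that mean.

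Counts of genes called over all genes moved most within tumours. CD29hiCD24+ against CD29+CD24+ had 565, against 1817 with a random and 2080 with a fixed replicate block, 149 with only the groups compared 1263 with the description-number block and at the lowest 207 with 1 tumour or pool left out. CD29hiCD24+ against Lin- had 1128, against 2400, 2531, 465, 1876 and 469. CD29+CD24+ against Lin- had 29, with alternatives from 0 to 122. In normal glands CD29+CD24+ against Lin- had 565, against 906 and 903 with the block, and CD29hiCD24+ against Lin- had 5420, against 3491 without pool F. Testing every probe set gave more calls because more features were tested, such as 8249 in the CD29hiCD24+ tumour comparison. No other comparison's count moved by over 1.5 times except under that setting or when a tumour or pool was left out.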
